A study of Mus musculus with 10 samples.

Results

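The genes described here are 10 core members of the N6-methyladenosine (m6A) machinery: the writers Mettl3, Mettl14 and Wtap, the erasers Fto and Alkbh5, and the readers Ythdf1, Ythdf2, Ythdf3, Ythdc1 and Ythdc2. They were chosen by gene symbol, and each of the 10 had a single row among the 21956 genes of the table. RNA came from the hippocampus of 10 mice of 6 months, all of the hMAPT genotype, which carries human tau. In 5 mice an adeno-associated virus (AAV) bearing circTau6, a circular RNA of the tau gene, had been injected 80 days before, and 5 mice served as controls, described in the extraction protocol as control-injected, with no further word on what they received. The labels give no promoter, serotype or target cell for the vector, so which cells received circTau6 was not analysed here. The comparison asks whether RNA levels of these genes differ between the groups.

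The methyl mark m6A sits on adenosines of messenger and circular RNA. Mettl3 carries the catalytic site of the writer, Mettl14 is its RNA-binding partner without catalysis of its own, and Wtap anchors the pair in nuclear speckles. Fto and Alkbh5 are iron-dependent dioxygenases that remove the mark. The YTH-domain readers bind it: Ythdf2 recruits RNA decay, Ythdf1 and Ythdf3 are tied to translation, Ythdc1 acts in the nucleus on splicing and export, and Ythdc2 is an RNA helicase best known from germ cells. On circular RNA the mark has been linked to translation without a cap, through Ythdf3 and Eif4g2, and to cleavage through Ythdf2 and RNase P/MRP. RNA levels say nothing of the mark itself, of protein or of enzyme activity, none of which was measured.

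The 3 cytoplasmic readers are paralogs, so their coding sequences were compared to see whether reads of 150 bases can tell them apart. Between 72.1% and 73.0% of aligned coding bases were identical (Ythdf1 with Ythdf2 72.1%, Ythdf1 with Ythdf3 72.3%, Ythdf2 with Ythdf3 73.0%, GENCODE M21). The longest stretch shared without a mismatch was 22 bases for Ythdf1 and Ythdf2, and 17 bases for each of the other pairs. These stretches, the longest exact runs, are shown with 30 bases on either side. Local likeness with scattered mismatches was not scored. Capitals mark the shared run, and lower case the flanks, in the sense direction of the mRNA.
Ythdf1 against Ythdf2, coding bases 679 to 760: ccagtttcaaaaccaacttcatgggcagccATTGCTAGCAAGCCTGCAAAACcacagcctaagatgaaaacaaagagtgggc
Ythdf2 against Ythdf1, coding bases 694 to 775: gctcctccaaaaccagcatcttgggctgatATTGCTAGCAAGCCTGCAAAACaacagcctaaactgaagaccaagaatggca
Ythdf1 against Ythdf3, coding bases 1153 to 1229: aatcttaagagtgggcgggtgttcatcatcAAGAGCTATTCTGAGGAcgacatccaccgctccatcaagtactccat
Ythdf3 against Ythdf1, coding bases 1234 to 1310: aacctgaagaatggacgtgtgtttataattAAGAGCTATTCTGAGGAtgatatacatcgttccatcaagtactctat
Ythdf2 against Ythdf3, coding bases 791 to 867: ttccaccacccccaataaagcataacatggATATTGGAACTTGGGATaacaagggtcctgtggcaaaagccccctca
Ythdf3 against Ythdf2, coding bases 794 to 870: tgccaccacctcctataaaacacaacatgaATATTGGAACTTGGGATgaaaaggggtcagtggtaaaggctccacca
In each pair the flanks differ at several positions, and no window of 75 bases of Ythdf1 or Ythdf3 occurred in a transcript of any other gene.

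Other members do share sequence outside the family. Of 1951 windows of 75 bases along Mettl3, 222 (11.4%) also lie in Tox4, the neighbour it overlaps tail to tail by 1561 bases on the opposite strand. Libraries were strand-specific, but no source used here says whether counting used strand. Ythdc1 shared 19.4% of its windows with Gm43055, a non-coding gene on the same strand that overlaps it, and Wtap shared 10.6%, nearly all with the processed pseudogene Gm14292. For Ythdf2 the share was 3.75%, mostly with the pseudogene Gm6823, and for Fto 2.15%, with the antisense gene 4831440D22Rik. These 4 partners have no row in the table, so reads given to them, or taken from them, cannot be seen. Mettl14, Alkbh5 and Ythdc2 shared none.

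By GENCODE M21 on GRCm38, whose gene IDs match the table (the build used by the authors is not given), the writers lie at chromosome 14 from 52294841 to 52305128 (Mettl3), chromosome 3 from 123368297 to 123386108 (Mettl14) and chromosome 17 from 12966796 to 12994169 (Wtap). The erasers lie at chromosome 8 from 91313525 to 91668439 (Fto) and chromosome 11 from 60536381 to 60558512 (Alkbh5). Among the readers, Ythdf1 lies at chromosome 2 from 180904377 to 180920949, Ythdf2 at chromosome 4 from 132184912 to 132212303, Ythdf3 at chromosome 3 from 16183212 to 16217037, and Ythdc1 at chromosome 5 from 86804221 to 86836659. Ythdc2 lies at chromosome 18 from 44827746 to 44889724. All 10 are protein-coding.

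Total counts were 14762952 to 17647138 per library, and members had between 229 counts (Mettl3) and 2853 counts (Fto) in a library, where counting alone gives an error of 6.61% and 2.09% at the lowest counts of these genes. Markers of hippocampal neurons were present in all libraries at a summed 598 to 685 CPM (counts relative to the scaled size of the library), as were those of astrocytes, oligodendrocytes, microglia and endothelial cells. Summed choroid plexus markers were 73.8 CPM in control replicate 2 and 64.4 CPM in circTau6 replicate 5, against 1900 to 5535 CPM in the other 8 libraries. CircTau6 replicate 3 stood apart in base composition. Its deviations from the other libraries correlated with transcript GC content across 14371 genes at 0.29, against −0.08 to −0.01 in the others. This is a description across genes that are not independent. The same library had the lowest summed markers of neurons (4806 CPM) and astrocytes (3538 CPM) of all libraries. Its summed markers of choroid plexus (5535 CPM), meningeal fibroblasts (153 CPM) and endothelial cells (224 CPM) were the highest. Summed microglial markers were 289 to 315.8 CPM in the controls and 317.8 to 344 CPM with circTau6, and 0 of the 5 microglial markers were called. These ranges did not overlap, while those of every other summed marker set did. Of all single genes tested, 0.472% had every circTau6 value above every control. The part of these cell types in the values of the m6A genes was not tested, and in whole tissue fewer cells of a type and less RNA per cell cannot be told apart. Results are therefore also given without the libraries that stand apart. Mapt, the mouse tau gene, had 387 to 530 counts in every library, which is no check of the delivered circle, since circTau6 has no row of its own.

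Every member was expressed well above the limit that 3 counts allow (0.203 CPM). In TPM, which is per transcript length and so allows genes to be compared, Fto was highest at 113 ± 3.92 TPM (SD, n = 10 libraries), 1.59 times the next member. Below it, Ythdc1 had a mean of 71.1 TPM, Wtap 63.7 TPM, Ythdf3 62.0 TPM and Ythdf1 54.7 TPM. A gap of 1.81 times separated Ythdf1 from Alkbh5 at 30.2 TPM. The lowest were Ythdf2 at 23.6 TPM, Ythdc2 at 23.6 TPM, Mettl14 at 21.5 TPM and Mettl3 at 20.6 TPM. Of the 9 neighbouring pairs in this order, only Fto over Ythdc1, Ythdf1 over Alkbh5 and Alkbh5 over Ythdf2 had ranges over the 10 libraries that did not overlap. Thus the eraser Fto was the most abundant transcript in 10 of 10 libraries, while the order among Ythdf2, Ythdc2, Mettl14 and Mettl3 differed from library to library. Wtap stood above Ythdf3 in 6 of 10 libraries, and Ythdf2 above Ythdc2 in 6 of 10.

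**Figure D1:**
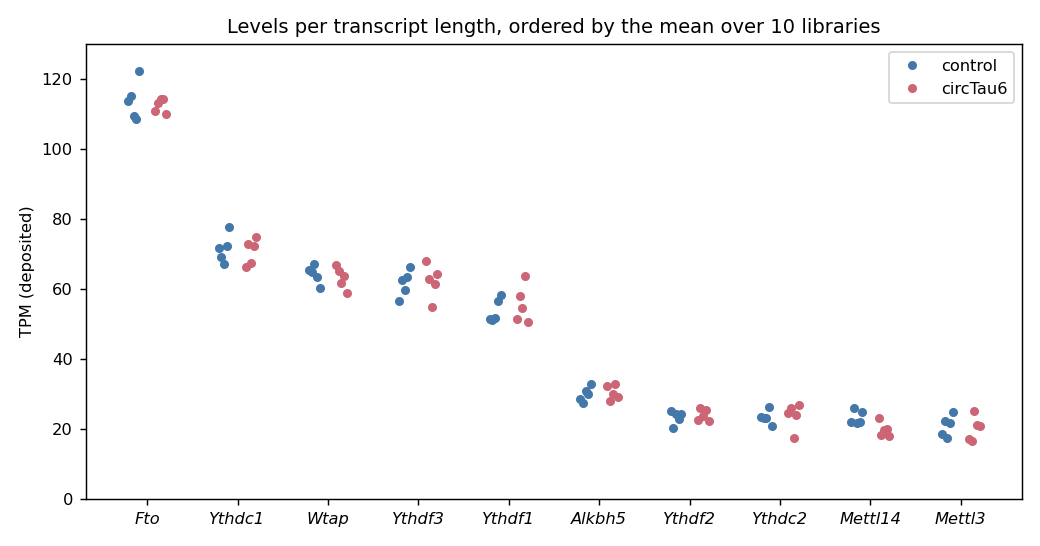
Deposited TPM (vertical axis) of each m6A gene in the 5 control and 5 circTau6 libraries, 1 point per library, ordered from left to right by the mean over all 10. Fto lies between 109 and 122 TPM, above every other gene, and the 4 genes at the right overlap one another.

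None of the 10 members passed the test between groups. In edgeR's quasi-likelihood test with Benjamini-Hochberg adjustment over 14396 genes, 0 of 10 were called, beside 0% of all genes tested. At an unadjusted p under 0.05 there were 0 of 10 members against 4.42% of all genes. DESeq2 also called 0 of 10 members, beside 0.0766% of the genes it tested. For 0 of 10 members did the groups fail to overlap; over all genes, 0.472% had all circTau6 values above the controls and 0.368% had all below. The signs were 2 positive and 8 negative with a median log2 fold change of −0.03, and over all genes 49.9% were positive with a median of 0.00. This tally moved with the setting: it was 5 and 5 without circTau6 replicate 3, 0 and 10 without circTau6 replicate 4, 5 and 5 in limma on TPM, 4 and 6 with scaling to library totals, and 5 and 5 in the authors' deposited table. The widest 95% interval of a fold change was that of Mettl3, the member with the fewest counts, from 0.815 to 1.15. The narrowest was that of Fto, from 0.921 to 1.04.

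**Figure D2:**
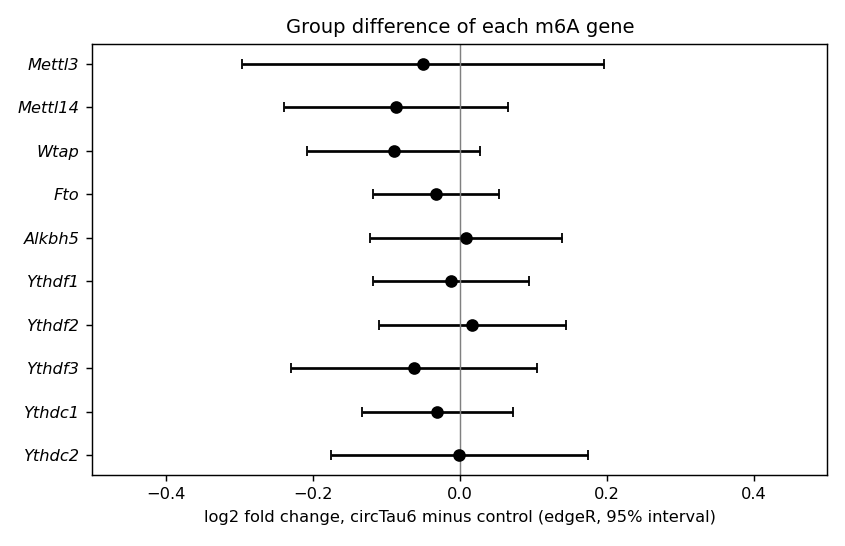
Log2 fold change of each m6A gene (horizontal axis, circTau6 minus control) from edgeR, with points for the estimate and bars for the 95% interval. Every bar crosses 0, and the interval is widest for Mettl3 (−0.30 to 0.20) and narrowest for Fto (−0.12 to 0.05).

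Among the writers, Mettl3, the methyltransferase, had 14.8, 18.0, 14.2, 17.9 and 19.0 CPM in control replicates 1 to 5 and 14.1, 13.6, 20.0, 16.8 and 16.5 CPM in circTau6 replicates 1 to 5. Both the lowest and the highest value were in circTau6 libraries, so the control range lay inside the circTau6 range. The log2 fold change was −0.05 ± 0.12 (SE), with an edgeR adjusted p of 0.991. Its variation between libraries beyond counting error, as the biological coefficient of variation from edgeR, was 13.5%, against 14.0% for the trend of genes at the same level. The fit draws each gene toward that trend, so closeness to it is partly built in. Without circTau6 replicate 3, which had the highest Mettl3, the log2 fold change was −0.14 and the edgeR adjusted p stayed near 1.00.

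Mettl14, the partner of Mettl3, had 26.5, 22.6, 23.2, 24.2 and 25.6 CPM in the controls and 25.0, 21.7, 22.8, 24.0 and 21.4 CPM with circTau6. The circTau6 values lay in the lower part of an overlapping range, 3 of them inside the control range and 2 below it. The log2 fold change was −0.09 ± 0.07 (SE), with an edgeR adjusted p of 0.981 and an interval of −0.24 to 0.07. Wtap, the adaptor subunit, had 63.4, 61.6, 63.0, 60.5 and 56.9 CPM in the controls and 63.7, 54.3, 56.7, 57.7 and 54.5 CPM with circTau6. CircTau6 replicate 1 had the highest Wtap of all 10 libraries, while the other 4 were below the second lowest control. Without circTau6 replicate 1 the log2 fold change of Wtap was −0.13, with an unadjusted edgeR p of 0.0254 and an edgeR adjusted p of 0.886. Leaving out single libraries in turn gave −0.13 to −0.07. With all libraries, the log2 fold change of Wtap from counts, −0.09 ± 0.06 (SE), was the largest in size of the 10 members. It had the lowest unadjusted edgeR p, 0.123, with an edgeR adjusted p of 0.981. This rank did not hold in TPM, where limma on log2(TPM + 0.1) gave −0.023 for Wtap, with an unadjusted p of 0.650.

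The 2 units of the table also gave different sizes for Mettl14. In TPM it had 22.0, 25.9, 21.6, 22.1 and 24.9 in control and 23.0, 18.2, 19.6, 20.0 and 17.9 in circTau6 libraries, so 4 of 5 circTau6 libraries lay below every control and replicate 1 did not. The log2 difference was −0.24 in limma on log2(TPM + 0.1), with an unadjusted p of 0.0141 and an adjusted p of 0.992 over all genes, against −0.09 from counts. The authors' deposited table likewise gives −0.24 for Mettl14, as a ratio of mean TPM, beside a p of 0.950. The count that 1 TPM stands for, relative to the median gene of the same library, was 0.711 to 0.975 in control and 0.889 to 0.991 in circTau6 libraries. It was lowest in control replicate 2. The group means were 0.850 ± 0.095 in control and 0.955 ± 0.040 in circTau6 libraries (SD, n = 5 each). For Mettl14 this quantity varied between libraries more than for 93.2% of 11705 genes with at least 50 counts in each library. Protein-coding Mettl14 transcripts in GENCODE M21 run from 634 to 7197 bases. For Fto and Alkbh5 the same quantity moved by no more than 1.02 times between any 2 libraries. The lengths behind the deposited TPM are not in the table, and the assignment of reads to Mettl14 isoforms was not tested.

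**Figure D3:**
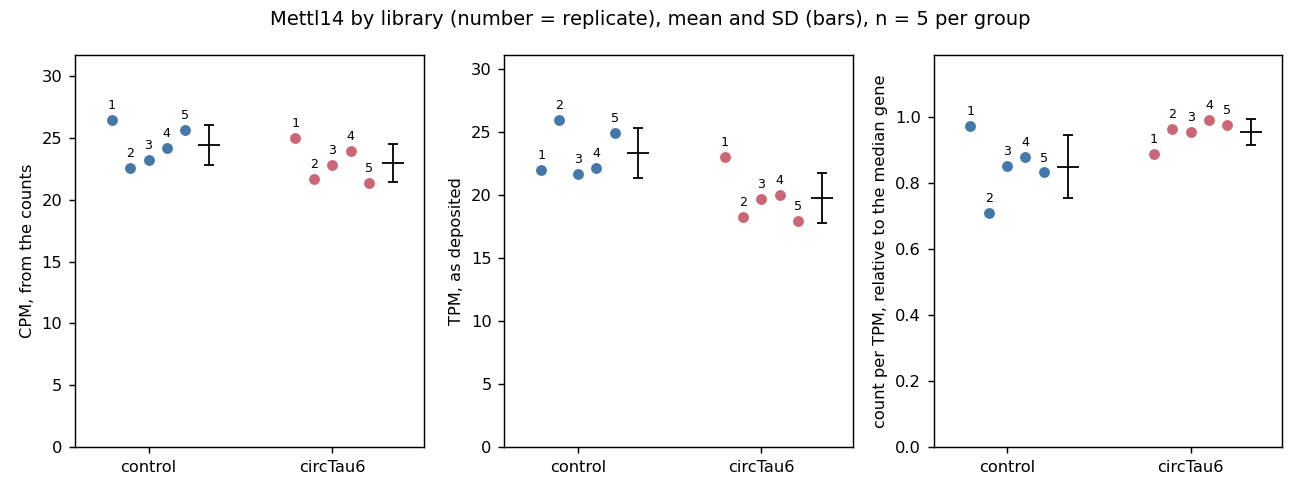
Mettl14 in each library as CPM from the counts (left), as deposited TPM (middle) and as count per TPM relative to the median gene of the library (right), each on a linear axis from 0. Points carry replicate numbers and bars give the mean and SD of 5 libraries. The groups overlap in all 3 panels, and control replicate 2 is lowest at the right (0.711) and highest in the middle (25.9 TPM).

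Among the erasers, Fto, a demethylase of internal m6A and of the methylated cap-adjacent base, had 164, 165, 160, 158 and 175 CPM in the controls and 159, 163, 164, 162 and 156 CPM with circTau6. The circTau6 values spread little, and only replicate 5 lay outside the control range, just below it. The log2 fold change was −0.03 ± 0.04 (SE), with an edgeR adjusted p of 0.981. Fto was the steadiest member, with a biological coefficient of variation of 5.40%, against 7.63% for the trend of genes at the same level. It was lower than that of all but 1.25% of the tested genes, a rank over genes of all levels. Fto also had the most counts of the members. Alkbh5, the other demethylase, had 66.0, 62.9, 72.7, 70.4 and 75.9 CPM in the controls and 74.5, 64.8, 69.2, 74.8 and 66.8 CPM with circTau6. All 5 circTau6 libraries lay inside the control range, and the log2 fold change was 0.01 ± 0.06 (SE) with an edgeR adjusted p of 0.995.

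Among the cytoplasmic readers, Ythdf1 had 66.1, 65.4, 65.8, 67.0 and 71.6 CPM in the controls and 65.9, 66.9, 64.0, 72.1 and 64.3 CPM with circTau6. A single library in each group, control replicate 5 and circTau6 replicate 4, stood above 71 CPM. The decay-linked Ythdf2 had 38.4, 33.6, 39.0, 36.1 and 39.1 CPM in the controls and 37.3, 38.5, 36.4, 40.5 and 35.6 CPM with circTau6. The lowest value was in control replicate 2, 1 of the libraries poor in choroid plexus transcripts, and the other values of the groups overlapped. Log2 fold changes were −0.01 ± 0.05 (SE) for Ythdf1 and 0.02 ± 0.06 (SE) for Ythdf2, each with an edgeR adjusted p of 0.994.

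Ythdf3, the reader tied to circular RNA translation, had 115, 125, 120, 127 and 128 CPM in the controls and 131, 125, 92.5, 115 and 125 CPM with circTau6. CircTau6 replicate 3 was the lowest by a wide margin in CPM, and the other 4 libraries had values between 115 and 131 CPM, like the controls. In TPM the margin was small, with 54.8 in circTau6 replicate 3 and 56.7 in control replicate 1, the next lowest. The count that 1 TPM of Ythdf3 stands for, relative to the median gene, was lowest in circTau6 replicate 3, at 1.39. It was 1.54 to 1.64 elsewhere. With all libraries the log2 fold change was −0.06 ± 0.08 (SE), with an edgeR adjusted p of 0.981. Without circTau6 replicate 3 it was 0.01, a change of sign, with an edgeR adjusted p near 1.00.

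Of the remaining readers, the nuclear Ythdc1 had 101, 98.6, 98.3, 103 and 107 CPM in the controls and 93.3, 105, 94.3, 102 and 103 CPM with circTau6. CircTau6 replicates 1 and 3 lay below the controls and the other 3 inside their range, giving a log2 fold change of −0.03 ± 0.05 (SE) and an edgeR adjusted p of 0.983. Ythdc2, the helicase, had 54.7, 55.6, 54.3, 60.3 and 51.8 CPM in the controls and 56.7, 58.5, 42.7, 57.9 and 60.9 CPM with circTau6. As with Ythdf3, circTau6 replicate 3 was far below the rest in CPM, while the other 4 circTau6 libraries lay above the second highest control. Unlike Ythdf3, Ythdc2 was also clearly lowest there in TPM, at 17.3 against 20.9 in control replicate 5, the next lowest. The log2 fold change was 0.00 ± 0.08 (SE) with an edgeR adjusted p of 0.999, and 0.08 without circTau6 replicate 3, with an edgeR adjusted p near 1.00.

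**Figure D4:**
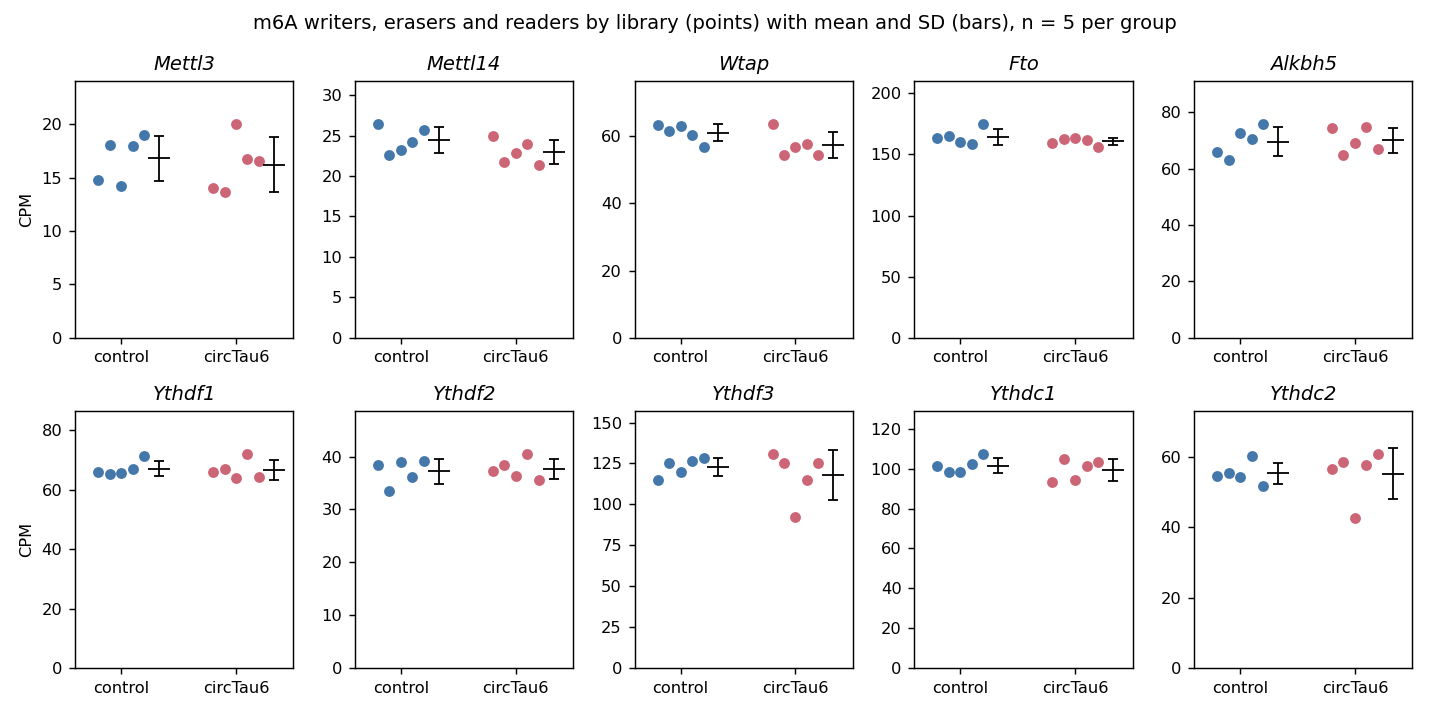
CPM of each m6A gene (vertical axes start at 0) in control and circTau6 libraries, with points for replicates 1 to 5 from left to right and bars for the mean and SD of 5 libraries. The groups overlap for all 10 genes, and the isolated low points of Ythdf3 (92.5 CPM) and Ythdc2 (42.7 CPM) belong to circTau6 replicate 3.

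The members with AU-rich transcripts were those lowest in circTau6 replicate 3. Relative to the mean of the other 9 libraries, Ythdf3 lay at −0.41 and Ythdc2 at −0.41 in log2 CPM in this library. Their transcripts have 38.4% and 42.0% GC, against a median of 50.4% over 14371 genes. Ythdc1, at 41.8% GC, lay at −0.10, and so did not share the drop to the same degree. Mettl3, at 50.2% GC, lay at 0.32, and Fto, at 52.1%, at 0.01. Over the 10 members the correlation of this deviation with GC content was 0.79, a description over genes that share a library. The same value is not given for the other 9 libraries, so its size alone does not mark this library. In circTau6 replicate 2 the correlation over 14371 genes was only −0.01. There Mettl3 lay at −0.29, Ythdf3 at 0.07 and Ythdc2 at 0.10, in the opposite order. Among all tested genes the median deviation in circTau6 replicate 3 was −0.15 for genes at or below the lower quartile of GC content (45.6%) and 0.11 for those at or above the upper quartile (55.1%). This library also had the lowest summed neuron and astrocyte markers and the highest summed choroid plexus, meningeal fibroblast and endothelial markers. Whether base composition or cell make-up sets the Ythdf3 and Ythdc2 values in this library was not tested.

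**Figure D5:**
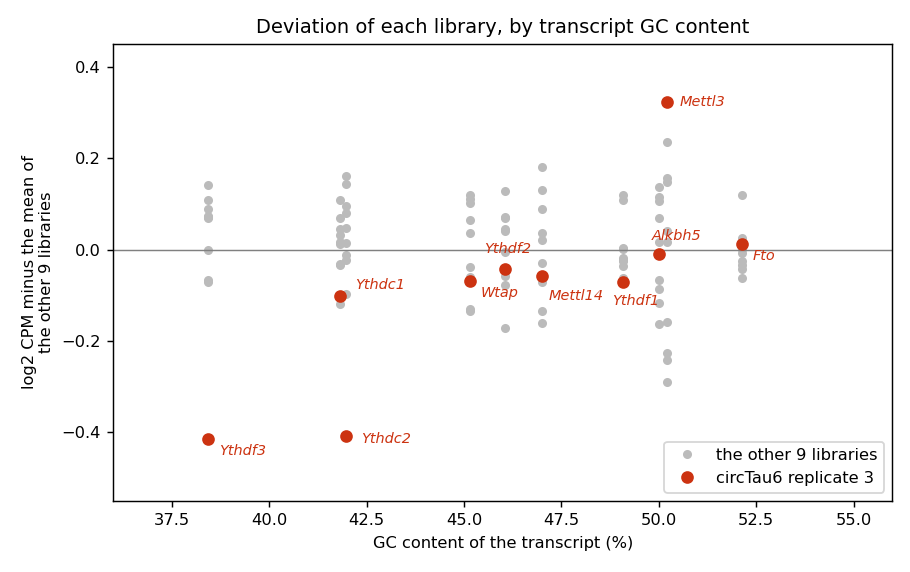
Log2 CPM of each m6A gene in a library minus its mean over the other 9 libraries (vertical axis) against the GC content of its transcript in percent (horizontal axis). Red points are circTau6 replicate 3, where Ythdf3 and Ythdc2 lie at −0.41 and Mettl3 at 0.32, and grey points are the other 9 libraries.

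Ratios within a library do not depend on scaling between libraries, and 6 were compared between groups by exact permutation (two-sided) over the 252 ways to divide 10 libraries into 5 and 5, whose smallest p is 0.00794. The ratio of Mettl3 to Mettl14 in TPM, the catalytic pair, was 0.849, 0.860, 0.800, 0.984 and 0.996 in control and 0.743, 0.912, 1.27, 1.06 and 1.16 in circTau6 libraries. Of the circTau6 libraries, 3 were above every control and 1 was below, and the exact permutation p was 0.262 (0.921 after Benjamini-Hochberg adjustment over the 6 ratios). The log2 difference of this ratio was 0.18 from TPM and 0.03 from counts. Single libraries moved it: from TPM it was 0.29 without circTau6 replicate 1 (exact permutation p = 0.0556, adjusted 0.333) and 0.096 without circTau6 replicate 3 (exact permutation p = 0.516, adjusted 0.774). The ratio of Fto to Alkbh5 was 3.54 to 4.22 in control and 3.44 to 4.06 in circTau6 libraries, so Fto exceeded Alkbh5 by at least 3.44 times in every mouse. Ythdf1 was 2.05 to 2.53 times Ythdf2 in control and 2.22 to 2.51 times in circTau6 libraries, and Ythdf3 was 2.26 to 3.10 and 2.32 to 3.03 times Ythdf2. The decay-linked reader was thus the least abundant of the 3 paralogs in 10 of 10 libraries. Ratios of Wtap to Mettl3 (2.43 to 3.92) and of Ythdc2 to Ythdc1 (0.257 to 0.368) also overlapped between groups. No ratio passed, and the adjusted exact permutation p was 0.921 for each of the 6.

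The members did not rise and fall together from mouse to mouse in a way that passed the test. Of 45 pairs, 29 had a positive and 16 a negative Pearson r over the 10 libraries, 2 had an unadjusted permutation p under 0.05 and 0 passed after Benjamini-Hochberg adjustment. The highest was Ythdf3 with Ythdc2, with r = 0.81 (permutation p = 0.0401, adjusted 0.648) and Spearman rho = 0.30 (permutation p = 0.408, adjusted 0.928). Without the 2 libraries farthest from the median of Ythdf3, circTau6 replicate 3 and control replicate 1, r was −0.07. Without circTau6 replicate 3 alone r was 0.10, so the relation rests on that library. The other pair with an unadjusted p of r under 0.05, named after its values were seen, was Ythdf1 with Ythdf2. It had r = 0.67 (permutation p = 0.0378, adjusted 0.648) and rho = 0.67 (permutation p = 0.0394, adjusted 0.493). Here r was 0.66 without circTau6 replicate 3, 0.70 without both choroid-poor libraries, 0.52 without circTau6 replicate 4 and 0.38 without circTau6 replicate 4 and control replicate 5, the libraries farthest from the median of Ythdf1. The lowest r was that of Wtap with Ythdc1, −0.51 (permutation p = 0.134, adjusted 0.648), with rho = −0.64 (permutation p = 0.0548, adjusted 0.493). For this pair r was −0.33 without the 2 libraries farthest from the median of Wtap, −0.75 without circTau6 replicate 3, and −0.80 for deviations from the group means. The lowest rho, also named after its values were seen, was that of Fto with Ythdc2, −0.73 (permutation p = 0.0201, adjusted 0.493). Its r was −0.46 (permutation p = 0.161, adjusted 0.648), and −0.80 without circTau6 replicate 3.

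For each member, the gene most correlated with it over the 10 libraries is given as a description only. Each r is the highest of 12861 values over few libraries, so its size alone sets no gene apart. For Ythdf3 the closest was Pds5b at r = 0.98, and 0.93 without circTau6 replicate 3. For Alkbh5 it was Uso1 at 0.93, and 0.98 without that library. For Mettl3 it was Fntb at 0.94, for Mettl14 Msi1 at 0.93, for Wtap Prss23 at 0.93 and for Ythdc1 Slc25a37 at 0.93. Fto was closest to Zfp791 at 0.92, Ythdf2 to Cobll1 at 0.92, and Ythdf1 to Mrpl50 at 0.91. For Ythdc2 it was Fam169a at 0.94, falling to 0.79 without circTau6 replicate 3.

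The wider machinery was examined in 8 lists of 78 genes, of which 75 passed the filter on low counts. In edgeR 0 of 75 were called, beside 0% of all genes. Signs were positive for 37 and negative for 38. An unadjusted edgeR p under 0.05 was found for 2 of 75, beside 4.42% of all genes tested. Writer complex subunits beside the members had 0 of 5 past the test and a median log2 fold change of −0.04; Virma, the scaffold of the complex, had 58.4 ± 1.60 CPM among controls (SD, n = 5) and 59.3 ± 1.31 CPM with circTau6 (SD, n = 5). Log2 fold changes were 0.02 for Virma, −0.04 for the ubiquitin ligase Cbll1 and −0.04 for the RNA-binding subunit Rbm15b. Other RNA adenine methyltransferases, listed together with the partner protein Trmt112, had 0 of 6 past the test and a median of 0.07. Pcif1, the writer of the cap-adjacent mark, was at 0.09 ± 0.07 (SE), and Trmt112 at 0.09 ± 0.10 (SE). Mettl16, which acts on U6 RNA and Mat2a, was at −0.10 ± 0.10 (SE). Other AlkB homologs had 0 of 7 past the test and a median of 0.17, with Alkbh8 at −0.11 ± 0.07 (SE), Alkbh3 at 0.17 ± 0.14 (SE) and Alkbh2 at 0.52 ± 0.34 (SE) on low levels of 1.11 CPM in the controls and 1.60 CPM with circTau6.

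Of the proteins that associate with m6A outside the YTH family, 0 of 10 tested were called, with a median log2 fold change of −0.02. Hnrnpc, a nuclear protein whose binding follows RNA structure changed by the mark, had the lowest unadjusted p of the 75 genes. Hnrnpc stood at 189 ± 11.1 CPM among controls (SD, n = 5) and 173 ± 4.58 CPM with circTau6 (SD, n = 5), ranges of 169 to 198 and 169 to 181 CPM that overlapped. The log2 fold change was −0.12 ± 0.05 (SE), with an unadjusted p of 0.0176 and an edgeR adjusted p of 0.981. In limma on log2(TPM + 0.1) it was −0.075, with an unadjusted p of 0.183. The other settings with all libraries gave −0.10 (total scaling) to −0.13 (DESeq2). Elavl1, an RNA-stabilising protein, had −0.12 ± 0.07 (SE), and Snd1 had 0.08 ± 0.05 (SE). The readers Igf2bp1, Igf2bp2 and Igf2bp3 did not pass the filter, with 0 to 21 counts in any library.

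In the lists tied to the work of the readers, 0 of 4 partners in nuclear processing and export were called (median −0.07), with Srsf3, a splicing partner of Ythdc1, at −0.09 ± 0.06 (SE), Cpsf6 at −0.12 ± 0.08 (SE) and the export receptor Nxf1 at 0.05 ± 0.05 (SE). Partners in cap-independent translation had 0 of 14 past the test and a median of 0.04. Eif3f, a subunit of initiation factor eIF3, had 90.0 ± 2.75 CPM among controls (SD, n = 5) and 96.9 ± 4.83 CPM with circTau6 (SD, n = 5), overlapping at 91.0 to 93.9 CPM. Its log2 fold change was 0.11 ± 0.05 (SE), with an unadjusted p of 0.0364 and an edgeR adjusted p of 0.981. Eif3m had 0.08 ± 0.06 (SE) and Eif3i 0.08 ± 0.06 (SE). Partners in RNA decay had 0 of 24 past the test and a median of −0.01, with the deadenylase subunits Cnot3 and Cnot6 at −0.13 ± 0.09 (SE) and −0.10 ± 0.06 (SE), and Rpp38, of RNase P/MRP, at −0.26 ± 0.17 (SE) on a low level of 3.86 CPM in control. In the list of supply of the methyl donor S-adenosylmethionine, 0 of 5 were called with a median of −0.01; Mat2a, its synthetase, had 0.05 ± 0.05 (SE), Mat2b −0.01 ± 0.06 (SE) and Ahcyl1 −0.05 ± 0.04 (SE).

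Of the 24 genes named from these lists, 11 moved by over 1.5 times, or changed sign, without circTau6 replicate 3. Cpsf6 was then at −0.04, Srsf3 at −0.05, Elavl1 at −0.08 and Cnot6 at −0.04 on the log2 scale. Alkbh2 was at 0.27, Alkbh8 at −0.07, Trmt112 at 0.05 and Eif3i at 0.03. Cbll1 was at −0.0012, Mat2a at 0.07 and Mat2b at 0.02. Hnrnpc (−0.12) and Eif3f (0.09) moved by less than 1.5 times without any single library. Counting every single-library omission, 19 of the 24 moved by more than that ratio, and none was called in any of them.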

How the data were processed

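RNA from the hippocampus of 10 mice was sequenced from ribosome-depleted, strand-specific libraries as 150 bp pairs, with RNA integrity numbers above 8.0, per the labels' protocols. The authors deposited a table with counts and TPM per gene and library, per the file headers, and their own log2 fold change, p-value and FDR, from a test that no source used here names. The deposited log2 fold change equals the log2 ratio of mean TPM. StringTie 1.3.1 and RSEM are listed in the submitters' processing notes without saying what each did. No source used here gives the aligner or the genome build. In 108 entries a count of 0 stands beside a TPM above 0, so counts may be rounded estimates.

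The whole table was fitted with edgeR 4.0.16 in R 4.3.3 (filterByExpr, TMM, robust quasi-likelihood F test, Benjamini-Hochberg over 14396 genes, threshold 0.05). Standard errors are the log2 fold change over the root of F. CPM uses TMM-scaled library sizes, with a prior count of 2 on the log scale. Each fit was tested on simulated data. Members and lists were chosen with earlier results of these data known. Named genes are the 10 members, the 3 lowest p of each list, the pairs of members with the highest and lowest r and the gene most correlated with each member among genes averaging log2 CPM 1 or more, leaving out predicted genes, Rik clones and pseudogenes. Alternatives were DESeq2 1.42.0, limma 3.58.1 (voom, or log2(TPM + 0.1)), other scalings, no filter, a replicate block and leaving out libraries. Sequences come from GENCODE M21 transcripts (principal isoform), matched for 21804 of 21956 gene IDs. Replicates are labelled as separate libraries and all pairs within a group differed by more than sampling noise. That each is a different mouse is taken from the labels. The p-values weigh a group difference against the variation between these samples, or a correlation against permuted values. Depth was 14762952 to 17647138 counts per library. Counting errors given for single libraries cover counting alone, while the intervals of fold changes include the spread between libraries.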

Additional observations from a re-analysis of the deposited data

Results flagged for a closer look

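Across 70 groups of 5 values examined, 4 held a library far from the other 4, and chance gives about 5 in 100. Ythdc2 in circTau6 replicate 3 had 42.7 CPM, against 56.7 to 60.9 CPM in the other circTau6 libraries, and 17.3 TPM, against 24.1 to 26.8 TPM. Ythdf1 in control replicate 5 had 71.6 CPM, against 65.4 to 67.0 CPM in the other controls. The summed markers of neurons in control replicate 2 had 5663 CPM, against 5194 to 5296 CPM in the other controls; this library was also poor in choroid plexus transcripts.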

How the results depend on the processing

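No member and no gene of the 8 lists was called under any alternative: DESeq2, limma voom, limma on TPM, RLE or total scaling, no filter, the replicate block, and each omission of libraries (the omission of 3 libraries was added after seeing the data). Signs of small differences changed. With limma voom the log2 fold change was 0.0084 for Ythdf1, 0.027 for Ythdc2 and 0.0044 for Mat2b, and with total scaling 0.011, 0.021 and 0.017, which put the median of all genes at 0.023. With limma on TPM it was 0.044 for Ythdf1, 0.013 for Ythdf3, 0.0065 for Ythdc2, 0.0013 for Rbm15b, 0.050 for Mettl16 and 0.010 for Mat2b. Without both choroid-poor libraries it was −0.012 for Alkbh5 and −0.0024 for Ythdf2, and without those and circTau6 replicate 3 it was 0.014 for Ythdf1, 0.015 for Ythdf3, 0.062 for Ythdc2, 0.043 for Cbll1 and −0.034 for Alkbh2. From counts, the log2 difference was −0.037 for the ratio of Wtap to Mettl3 and −0.030 for Ythdf1 to Ythdf2. The cause of these changes was not tested. Leaving out single libraries gave −0.14 to 0.0058 for Mettl3, −0.026 to 0.041 for Alkbh5, −0.043 to 0.011 for Ythdf1, −0.019 to 0.038 for Ythdf2, −0.10 to 0.011 for Ythdf3, −0.037 to 0.078 for Ythdc2 and −0.044 to 0.022 for Mat2b. For ratios it gave 0.096 to 0.29 (Mettl3 to Mettl14), −0.075 to −0.0041 (Fto to Alkbh5), −0.047 to 0.13 (Wtap to Mettl3), −0.036 to 0.040 (Ythdf1 to Ythdf2), −0.081 to 0.032 (Ythdf3 to Ythdf2) and −0.046 to 0.12 (Ythdc2 to Ythdc1). Same-numbered libraries of the groups share only a number, with correlations of deviations of −0.08 to 0.14; with the replicate block 0 members were called, and in 0 of 5 numbers did a control library correlate best with its own number. Over all genes, against 0 called by edgeR, 4 were called with the block, 14 by DESeq2, 2 by limma voom, 2 with total scaling, 2 without the filter, 1 without control replicate 1, 1 without control replicate 3, 4 without circTau6 replicate 5 and 3 without both choroid-poor libraries.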
